A study of Mus musculus with 6 samples.

Results

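The cytosolic ribosomal proteins build the small and the large subunit of the ribosome, and their genes carry the prefixes Rps and Rpl. The genes described here are those annotated as Rpl or Rps followed by a number and at most 1 of the letters a, l, x or y, each read by its brightest probe set that is paired with that gene alone. This gave 43 of the 18193 genes measured, 22 of the large and 21 of the small subunit. Intestinal epithelial cells of C57BL/6 mice were profiled on a 3′ Affymetrix array, 1 array per animal. All 6 animals carry the floxed casp8 gene. The 3 control animals lack villinCre, and the 3 deleted animals carry it, so that Cre under the villin promoter, which is active in gut epithelium, removes the floxed part of the caspase-8 gene. The sources used here give neither age nor sex. Caspase-8 starts apoptosis from death receptors and restrains necroptosis.

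Every ribosome holds 1 copy of nearly all of these proteins, so their mRNAs are made at high and matched levels. Most of these mRNAs begin with a terminal oligopyrimidine (TOP) tract, a short run of C and T letters at the very start of the transcript, through which mTORC1 and the RNA-binding protein LARP1 set how much of them is translated. In the gut the demand for ribosomes is high in the dividing cells of the crypt. Free RPL5 and RPL11 bind MDM2 and so link faulty ribosome assembly to p53.

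Starts of the RefSeq promoter table (GRCm38.p6) were used but for those on 1 chromosome, which were left out. Of the 43 genes, 37 had at least 1 annotated start among those used, 45 starts in all. Rpl7, Rpl8, Rps14, Rps20, Rps29 and Rps4l had none there, which does not mean that the table lacks them. The start windows below are those of genes whose values are given further on, and show starts with and without a pyrimidine run. They run from 20 bases before the annotated start through the first 10 transcribed bases, 5′ to 3′ on the gene's strand. Capitals mark the part in the window of an uninterrupted run of at least 7 letters that are C or T and that comes within 10 bases of the start. Rps6, Rpl12, Rps26, Rpl35 and Rpl38 hold such a run at or close to the start, the run of Rps27l lies before it, and Rpl11 and Rps4x have none.
Rps6, chr4:86857358-86857387, minus strand: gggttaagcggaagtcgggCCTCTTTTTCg
Rpl12, chr2:32961692-32961721, plus strand: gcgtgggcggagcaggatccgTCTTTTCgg
Rps26, chr10:128626497-128626526, minus strand: agcgggtcgggcaagccgccggaTCCTCTT
Rpl35, chr2:39005122-39005151, minus strand: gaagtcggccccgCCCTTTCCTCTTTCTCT
Rpl38, chr11:114668560-114668589, plus strand: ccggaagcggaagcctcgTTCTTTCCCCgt
Rps27l, chr9:66946066-66946095, plus strand: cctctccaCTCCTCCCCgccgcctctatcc
Rpl11, chr4:136053384-136053413, minus strand: gcctcctgacccataaggccacggggccgg
Rps4x, chrX:102189382-102189411, minus strand: aaagtctgaggctgggcggagcaacccagg

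A pyrimidine run of this kind was searched on the transcribed strand. It came within 10 bases of a start in 22 of the 37 genes (59.5%). Of the 14452 genes of the array with a start among those used, 22.9% had one. By single starts the shares were 48.9% of 45 and 19.5% of 18109. Within the 250 bases before to 50 bases after the start, CCGGAAG, the core of sites for ETS-family factors, was found on either strand in 48.6% of the ribosomal protein genes and in 15.0% of the array's genes. AAGATGG, the core of YY1 sites, was found in 18.9% and 7.54%. These are letter matches in a window, and no binding was measured. The median difference between deleted and control animals was −0.14 on the log2 scale for the 22 genes with a run and −0.16 for the 15 without. The 22 include Rps25, Rpl4, Rps27l, Rpl19, Rpl10a and Rpl39l, whose run ended before the first transcribed base and so lay outside the annotated transcript.

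None of the 43 ribosomal protein genes changed by the test, yet 41 of them had a lower mean in the caspase-8 deficient cells, or 36 after median centring of the arrays. Their median difference, deleted minus control, was −0.15 on the log2 scale, which corresponds to 90.4% of the control level, while the median of all genes was 0.02. After median centring these were −0.08 and 0.08, and with array weights the median of the 43 was −0.22. Both subunits had like values, with a median of −0.15 over the 22 Rpl genes, of which 21 were below 0, and −0.14 over the 21 Rps genes, of which 20 were below 0. Of all 18193 genes, 46.1% had a difference below 0. In limma, 0 of the 43 genes passed a Benjamini-Hochberg adjusted p of 0.05 over all genes, where 0.775% of all genes passed, 0.467% lower and 0.308% higher. At an unadjusted p under 0.05, 4 of the 43 were lower and none higher, against 8.53% and 8.12% of all genes, and with array weights 2 passed, both lower, against 7.73% of all genes, 3.87% lower. The smallest adjusted p was 0.153. The median standard error (SE) over the 43 genes was 0.13, close to the size of the median difference, and the 95% confidence interval excluded both a fall and a rise of 1 on the log2 scale for all 43 genes. For 40 of them it lay within 0.6 on either side of 0.

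**Figure D1:**
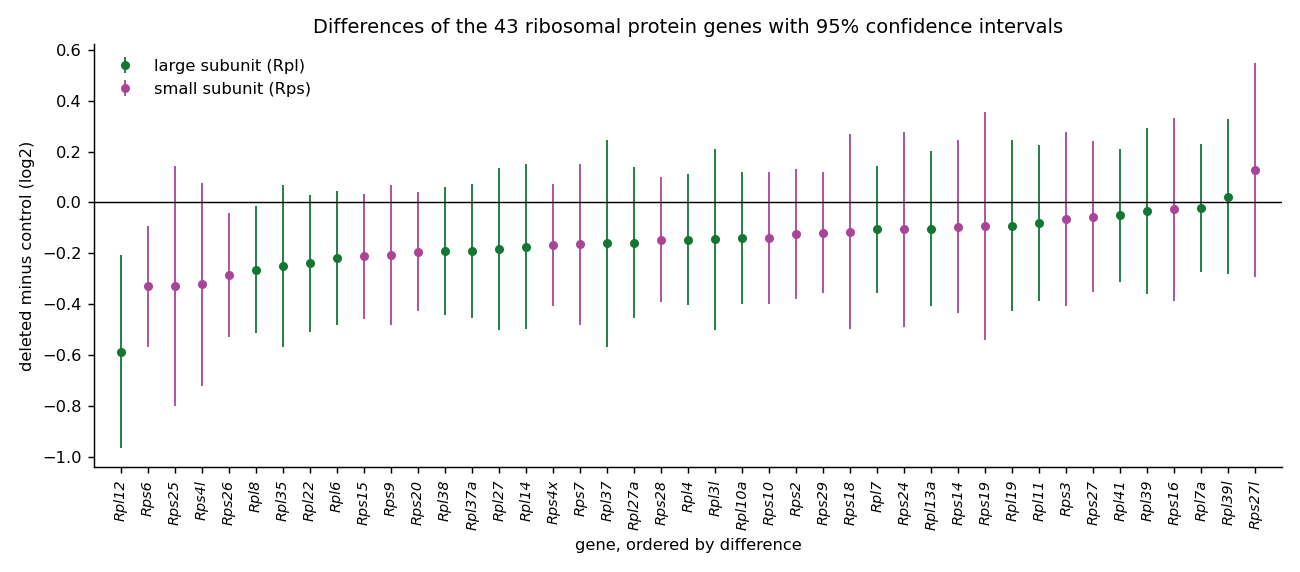
Deleted minus control on the log2 scale for each of the 43 genes, ordered by size, with points for the difference, bars for the 95% confidence interval of the limma fit (3 arrays per group) and colours for the 2 subunits. The points run from −0.59 for Rpl12 to 0.13 for Rps27l, 41 of them below 0 (36 after median centring), and 4 intervals lie wholly below 0.

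The groups did not overlap in 14 of the 43 genes, all with the deleted arrays lower (32.6%), where 11.2% of all genes were lower in this way. In none of the 43 were all deleted arrays above all controls, a pattern seen in 11.5% of all genes. The 14 genes were Rpl12, Rpl22, Rpl37a, Rpl38, Rpl6, Rpl8, Rps15, Rps2, Rps20, Rps26, Rps28, Rps29, Rps4x and Rps6. Leaving out an array can only keep or raise such a count, also over all genes. In a check added once the data were known, it was 29 genes without control replicate 2, against 15.4% of all genes. Without deleted replicate 3 it was 22, against 15.1%. Without each of the other 4 arrays it was 14 or 15, against 14.3% to 17.4%.

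Relative to the mean of the controls, the median of the 43 genes was 0.06, −0.13 and 0.03 on control replicates 1, 2 and 3, and −0.15, −0.21 and −0.06 on deleted replicates 1, 2 and 3. Control replicate 2 thus lay among the deleted arrays, and the groups overlapped. The median of all genes stayed between −0.01 and 0.01 on every array. The difference between the 3′ and 5′ Gapdh control probe sets, which rises with RNA degradation, was highest on control replicate 2, at 0.93, with 0.68 and 0.22 on control replicates 1 and 3 and 0.21 to 0.29 on the deleted arrays. With this difference as a covariate the median over the 43 genes was −0.20, and the median of all genes was 0.01. Without control replicates 1 and 2, which leaves control replicate 3 as the only control, these were −0.18 and 0.01. All 43 genes were below 0 in both settings, but they share the arrays and are not replicates. The share of all genes below 0 was not taken in these settings. The covariate itself mainly sets control replicates 1 and 2 apart from the other arrays. Deleted replicate 2 was the lowest of the 6 arrays in 19 genes, control replicate 2 in 13, deleted replicate 1 in 7 and deleted replicate 3 in 4, and control replicates 1 and 3 in none.

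**Figure D2:**
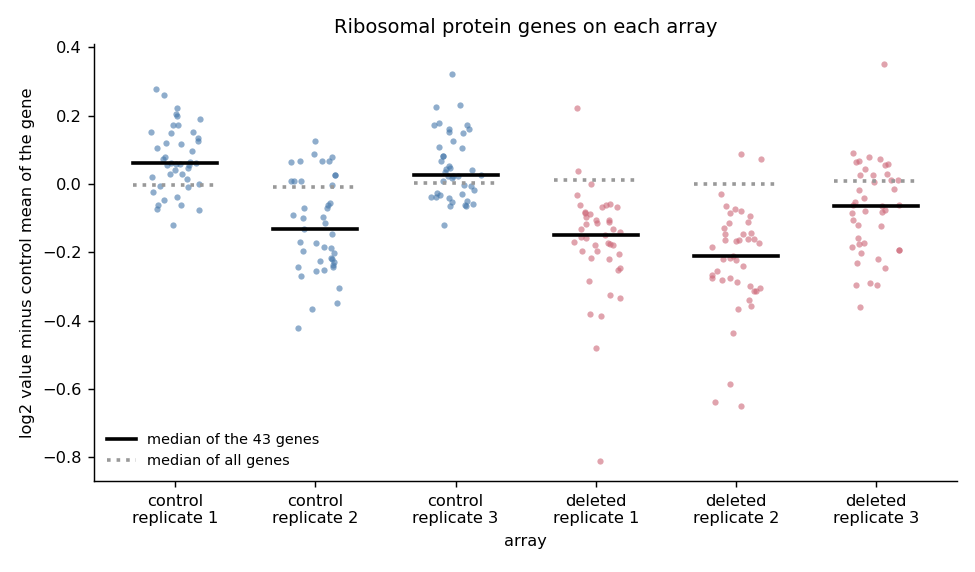
Each point is 1 of the 43 genes on 1 array, as its log2 value minus the gene's mean over the 3 control arrays; black lines are the medians of the 43 genes and dotted lines those of all genes. The medians of control replicate 2 (−0.13) and deleted replicate 3 (−0.06) overlap in order, while control replicates 1 and 3 stand highest.

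Control replicate 2 did not shift all ribosomal protein genes alike. It stood below the mean of control replicates 1 and 3 in 31 genes and above it in 12, with a median of −0.20, against −0.01 over all genes. The gene farthest below was Rps19, by −0.63, followed by Rps24 at −0.55 and Rps27l at −0.52. Rps2, Rpl4 and Rpl8 stood above it, by 0.19, 0.13 and 0.12. Measured against control replicates 1 and 3 alone, 41, 43 and 41 of the 43 genes were lower on deleted replicates 1, 2 and 3, and against all 3 controls 40, 41 and 28 were. The first reference leaves out the control array that stood lowest for these genes, and so lies higher for 31 of them. The rise in the counts follows from that choice. The same counts over all genes were not taken.

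Among proteins of the large subunit, Rpl12, which sits at the base of the stalk that recruits elongation factors, had the most negative difference. Its arrays read 6.79, 6.44 and 6.84 on the control arrays and 5.88, 6.11 and 6.33 on the deleted ones. All 3 deleted arrays lay below all controls, with a difference of −0.59 (SE 0.16, limma adjusted p = 0.153), or 66.6% of the control level. This probe set was dim, and 2 bright probe sets paired with Rpl12 and further genes stood at −0.19 and −0.09, so the size of its difference depended on the probe set.

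Rpl8, a protein close to the catalytic centre, read 12.161, 12.286 and 12.175 on the control arrays and 12.002, 11.868 and 11.961 on the deleted ones, without overlap. Its difference was −0.26 (SE 0.11, limma adjusted p = 0.276). Rpl22, an RNA-binding protein known for its need in T cell development, read 12.61, 12.36 and 12.56 against 12.29, 12.21 and 12.32. The groups lay apart by a narrow gap, and the difference was −0.24 (SE 0.12, limma adjusted p = 0.350), with −0.18 and −0.60 by its other probe sets. Rpl35, at the rim of the exit tunnel, read 12.50, 12.18 and 12.37 against 12.20, 11.91 and 12.19. Here control replicate 2 fell among the deleted arrays, and the difference was −0.25 (SE 0.14, adjusted p = 0.414).

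Rpl6, Rpl37a and Rpl38, the last needed for the translation of Hox mRNAs in the embryo, stood at −0.22, −0.19 and −0.19, each without overlap. The other large subunit genes lay closer to 0. Rpl4 and Rpl19, which also line or border the exit tunnel, stood at −0.15 and −0.09. Rpl7a, at −0.02, was nearly level, with 12.59, 12.48 and 12.57 on the control arrays and 12.59, 12.43 and 12.56 on the deleted ones. Rpl41, which encodes a very short peptide, stood at −0.05.

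Rpl11, the partner of MDM2, read 12.33, 11.95 and 12.30 on the control arrays and 12.10, 12.11 and 12.13 on the deleted ones. The deleted arrays lay close together, between control replicate 2 and the other controls, and the difference was −0.08 (SE 0.13, limma adjusted p = 0.799). Rpl5, which forms a particle with RPL11 and the 5S rRNA, had no probe set of its own. Its brightest probe set, shared with a pseudogene, read 12.90, 12.56 and 12.94 against 12.64, 12.51 and 12.71, a difference of −0.18.

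In the small subunit, Rps6, the substrate of the S6 kinases downstream of mTORC1, had the most negative difference. It read 8.86, 8.85 and 8.80 on the control arrays and 8.50, 8.47 and 8.55 on the deleted ones. The spread within each group was far smaller than the gap between them, with means of 8.84 ± 0.04 and 8.51 ± 0.04 (SD, n = 3). The difference was −0.33 (SE 0.10, limma adjusted p = 0.182), or 1.26-fold lower. Of its further probe sets, 4 bright ones shared with a pseudogene stood at −0.14 to −0.34, and a dim one of its own at 0.06. Dimmer shared ones ran from −0.57 (limma over all probe sets, adjusted p = 0.108) to −0.04.

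Rps26, which lies where mRNA leaves the ribosome, read 12.55, 12.68 and 12.61 against 12.36, 12.30 and 12.31. The deleted arrays were all lower, by −0.28 (SE 0.10, limma adjusted p = 0.240). Rps15 and Rps20 stood at −0.21 and −0.19 without overlap. Rps25, known for its part in initiation from internal ribosome entry sites, read 7.36, 6.86 and 7.03 against 6.71, 6.44 and 7.13, so that deleted replicate 3 lay among the controls. Its difference was −0.33 (SE 0.20, adjusted p = 0.458), and a brighter probe set shared with other genes stood at −0.02.

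Rps19, the gene mutated most often in Diamond-Blackfan anemia, read 12.01, 11.33 and 11.92 on the control arrays and 11.69, 11.47 and 11.82 on the deleted ones. The lowest value of all was that of control replicate 2, and the difference was −0.09 (SE 0.19, adjusted p = 0.852). Without control replicate 2 it was −0.30, and without control replicate 1 it was 0.04. Of 13 genes listed for this inherited failure of red cell production, 8 were among the 43, namely Rpl11, Rps7, Rps10, Rps19, Rps24, Rps26, Rps28 and Rps29. None passed in limma, 1 had an unadjusted p under 0.05, and their median was −0.13. Of the 8 listed exit tunnel genes 4 were measured, none passed, also at an unadjusted p under 0.05, and their median was −0.12. Of all genes, 8.53% were lower and 8.12% higher at an unadjusted p under 0.05. Lists of 8 and 4 genes are too short to set such counts apart from these shares.

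Rps27l, a close relative of Rps27 that is known as a p53 target, was the 1 bright gene with a positive difference. It read 11.71, 11.24 and 11.82 on the control arrays and 11.53, 11.68 and 11.94 on the deleted ones, with overlap between the groups. The difference was 0.13 (SE 0.18, 95% confidence interval −0.29 to 0.55, limma adjusted p = 0.767), and its other probe sets stood at 0.26 and 0.22. The positive sign rested on control replicate 2, without which the difference was −0.05. Rps27 itself was read by a dim probe set at −0.06, and a bright one shared with Rps27rt read 12.51, 12.45 and 12.46 against 12.17, 12.01 and 12.22, a difference of −0.34 without overlap (limma over all probe sets, adjusted p = 0.247).

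**Figure D3:**
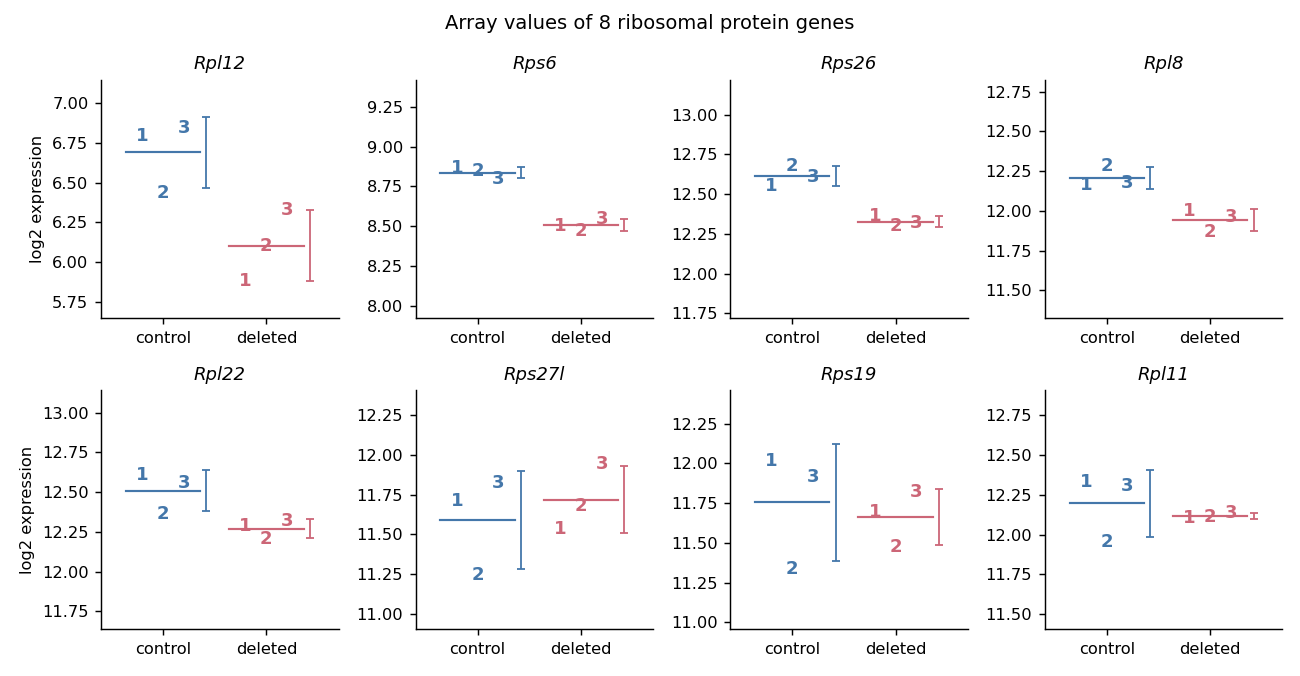
Log2 expression of 8 genes on the 6 arrays, with digits for the replicate number, lines for the group mean and bars for its SD (n = 3); each panel spans 1.5 log2 units around its own mean. Rpl12, Rps6, Rps26, Rpl8 and Rpl22 show no overlap between the groups, while in Rps27l, Rps19 and Rpl11 control replicate 2 is the lowest array.

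The other relatives were dim or overlapped. Rpl39l, a form of Rpl39 found mainly in male germ cells, averaged 2.96 ± 0.20 on the control arrays and 2.98 ± 0.05 on the deleted ones, and Rpl3l, the striated muscle form of Rpl3, averaged 2.82 ± 0.28 and 2.68 ± 0.05 (SD, n = 3). Rps4x and its relative Rps4l stood at −0.17 and −0.32, the former without overlap and the latter with deleted replicate 3 above control replicate 2. Rpl39, at the inner exit tunnel, stood at −0.03 by a dim probe set and −0.14 by a bright one shared with another gene. Rpl3, Rpl10, Rpl10l and Rps27a were not among the 43. Probe sets shared with other genes gave −0.27 for Rpl3 and −0.08 for Rpl10 at the brightest.

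Probe sets not used above gave like values. The 22 genes with several probe sets of their own had 53 further ones, of which 43 were below 0, with a median of −0.15. Ribosomal protein mRNAs have many processed pseudogenes, and 109 probe sets paired a ribosomal protein gene with 1 or more other genes. They covered 42 ribosomal protein genes, 27 of them outside the 43, and 101 (92.7%) were below 0, with a median of −0.15, where 47.6% of all 45037 probe sets were below 0. None of the 109 passed in limma (smallest adjusted p = 0.108). This last comparison was chosen after the data had been seen, and it comes from the same RNA and arrays. For both sorts of probe set, cross-hybridisation between a gene and its pseudogenes was not tested.

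Most of these genes were among the brightest on the array, where most other genes had a positive difference. Of the 43, 28 had a mean of at least 12 over the 6 arrays, all 28 were below 0, and their median was −0.14. The 178 other genes with a mean of at least 12 had a median of 0.12, and 25.3% of them were below 0. These shares are a description with no test. The 12 ribosomal protein genes with a mean under 11 had a median of −0.16, and among them were Rpl12, Rps6, Rps25 and Rps4l, the genes with the largest differences.

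**Figure D4:**
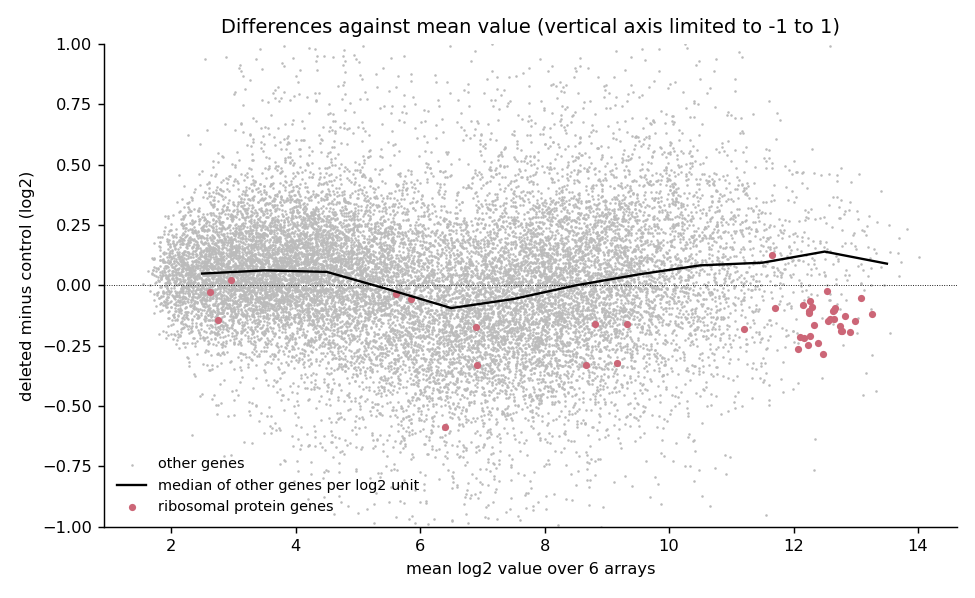
Deleted minus control against the mean log2 value over the 6 arrays, with the 43 genes in red, all other genes in grey and the median of the other genes per log2 unit as a black line; 250 other genes lie beyond −1 or 1 and are not drawn. The red points above 12 lie below 0 while the black line there lies above it (median 0.12 for the 178 other genes).

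Ribosomal proteins outside the naming rule had a median difference of −0.07, against −0.15 for the 43 genes. Of 6 measured, the groups did not overlap in 3, all with the deleted arrays lower, against 11.2% of all genes. In limma 0 passed, and 5 were below 0, against 46.1% of all genes. At an unadjusted p under 0.05, 1 was lower, against 8.53% of all genes. That was Rpsa, the laminin receptor and small subunit protein, which read 12.66, 12.86 and 12.45 against 12.38, 12.11 and 12.33, a difference of −0.38 (SE 0.14, adjusted p = 0.246). Of the 43 genes, only Rpl12, at −0.59, had a more negative difference than Rpsa. The stalk proteins Rplp2 and Rplp0 stood at −0.20 and −0.06, Fau at −0.04, Rpl7l1 at −0.08 and Rpl22l1, the relative of Rpl22, at 0.05. Of 12 elongation factor and other TOP mRNAs, 0 passed, also at an unadjusted p under 0.05. At that unadjusted threshold 8.53% of all genes were lower and 8.12% higher. In this list 9 were below 0, against 46.1% of all genes, and the median was −0.09. Among the 12, Hnrnpa1, Eef1b2 and Pabpc1, the poly(A)-binding protein, stood at −0.25, −0.24 and −0.25.

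Of 47 ribosome biogenesis genes, 0 passed in limma and 17 had an unadjusted p under 0.05, 15 of them lower, where 8.53% of all genes were lower in this way. In this list 41 (87.2%) were below 0, against 46.1% of all genes, and the median was −0.23. The groups did not overlap in 23 lower (48.9%, against 11.2% of all genes) and 3 higher (11.5% of all genes). Per array, relative to the control mean, the list's median was 0.03, 0.02 and −0.08 on the control arrays and −0.20, −0.23 and −0.35 on the deleted ones, so that all deleted arrays lay below all controls. Nop56 and Nop58, core proteins of the box C/D particles that methylate rRNA, stood at −0.48 and −0.41 (adjusted p = 0.107 and 0.131), and Dkc1, the pseudouridine synthase, at −0.46 (adjusted p = 0.111). Eif6, which keeps the subunits apart and is counted among the initiation factors too, stood at 0.36 (adjusted p = 0.182).

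The remaining lists were centred near the median of all genes or above it. At an unadjusted p under 0.05, 8.53% of all genes were lower and 8.12% higher. Of 41 initiation factors 0 passed, 4 had an unadjusted p under 0.05, 2 of them lower, 20 were below 0, and the median was 0.02. Eif3f stood at −0.39 and Eif4e3, a cap-binding relative of eIF4E, at 0.61 (adjusted p = 0.0996). Of 76 mitochondrial ribosomal proteins 0 passed, 5 had an unadjusted p under 0.05, 2 of them lower, 41 (53.9%) were below 0, and the median was −0.01. This median had no settled sign, being 0.053 after median centring and −0.10 without deleted replicate 3. Mrpl27, Mrps36 and Mrpl52 stood at 0.47, 0.46 and −0.30.

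Of 18 genes that control ribosome synthesis through mTORC1 and MYC, 0 passed, 6 had an unadjusted p under 0.05, 2 of them lower, and the median was 0.04, or 0.084 without deleted replicate 3. Max, the partner of MYC, read 9.71, 9.94 and 9.77 on the control arrays and 10.48, 10.32 and 10.29 on the deleted ones, without overlap (difference 0.56, SE 0.12, limma adjusted p = 0.0886), and it passed when dim genes were left out (adjusted p = 0.0457). Rps6kb2, an S6 kinase, and Mxd1, which competes with MYC for MAX, stood at 0.55 and 0.40. Myc itself stood at −0.31 (limma adjusted p = 0.382), with overlap between the groups. As the list holds both Myc and its competitor Mxd1, its median gives no direction for the pathway. The 2 lower ones at an unadjusted p under 0.05 were Larp1, the regulator of TOP mRNAs, and its relative Larp4. Larp1 read 9.53, 9.97 and 9.42 on the control arrays and 9.29, 9.24 and 8.80 on the deleted ones. Its groups did not overlap, and the difference was −0.53 (SE 0.19, limma adjusted p = 0.230). Larp4 stood at −0.29 (adjusted p = 0.237), also without overlap. Of 18 p53 response genes 0 passed, 7 had an unadjusted p under 0.05, 2 of them lower, 12 were above 0, and the median was 0.18. In this list 33.3% were below 0, against 46.1% of all genes. For both lists, 8.53% of all genes were lower and 8.12% higher at an unadjusted p under 0.05. Pmaip1, which promotes apoptosis, the death receptor gene Tnfrsf10b and Phlda3 stood at 0.82, 0.65 and 0.38. Tnfrsf10b was dim, with a mean of 3.715 over the arrays. The 2 lower ones, the nuclease gene Aen and the DNA polymerase gene Polk, stood at −0.31 and −0.30, each without overlap.

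**Figure D5:**
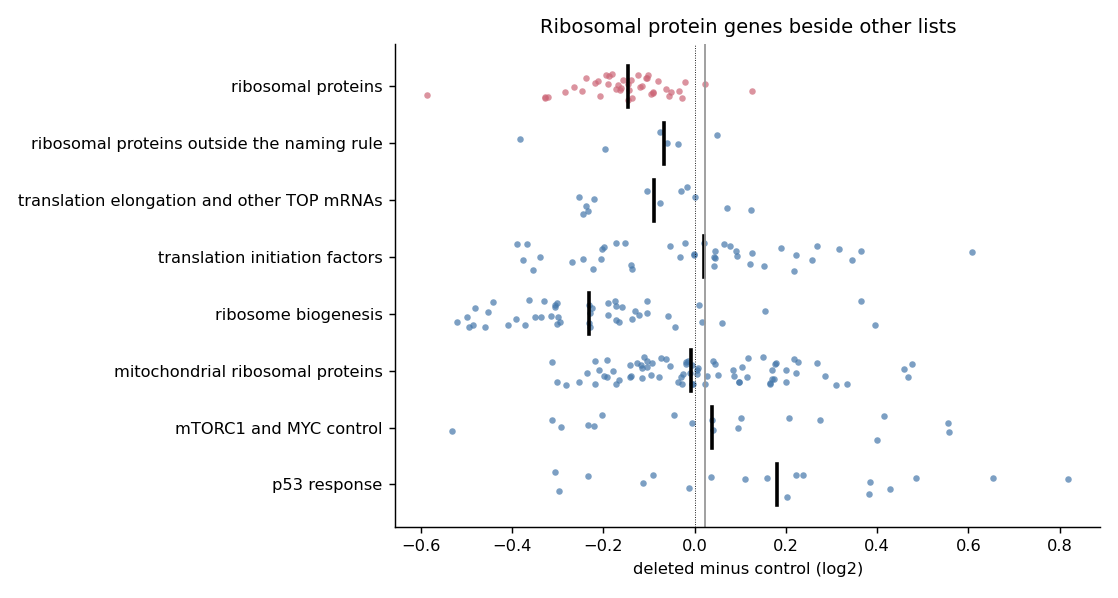
Deleted minus control on the log2 scale for each gene (points) of the ribosomal proteins and 7 other lists, with black bars for the list medians and a grey line for the median of all genes (0.02). The ribosomal proteins form a narrow group around −0.15, ribosome biogenesis lies at −0.23 and the mitochondrial ribosomal proteins at −0.01.

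Across the 18193 genes the arrays correlated at 0.990 to 0.994 within the controls, 0.984 to 0.995 within the deleted animals and 0.979 to 0.991 between the groups. Markers of the labelled cell type were bright: the 12 epithelial markers, such as Epcam and Vil1, averaged 12.12 to 12.27 on the control arrays and 12.16 to 12.25 on the deleted ones on the log2 scale, and 0 passed in limma, 3 at an unadjusted p under 0.05. These were Vil1 and Krt20, higher at 0.28 and 0.26, and Cdx1, lower at −0.48. Of the 12, 8 were above 0 and 4 below. The 11 measured leukocyte markers averaged 6.38 to 7.17 and 6.25 to 6.60, with 10 below 0, and the 12 markers of stroma and vessels 4.09 to 4.76 and 4.22 to 5.60, highest on deleted replicate 1. The 3 measured red blood cell markers averaged 3.74 to 4.70 and 3.48 to 4.19. None of these markers passed in limma. At an unadjusted p under 0.05, 1 leukocyte marker was lower, 2 of stroma and vessels were higher, and 0 red blood cell markers passed. Of all genes, 8.53% were lower and 8.12% higher in this way, and 46.1% were below 0. These shares stand beside the counts of the epithelial markers too. The part of all these markers in the ribosomal protein values was not tested. In bulk RNA, fewer cells of a type and less RNA per cell cannot be told apart.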

How the data were processed

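The authors deposited log2 expression values for each probe set. Per the submitters' processing notes these come from RMA, or robust multi-array average. A version, settings or a genome build, not given in the sources used here, could not be checked. The deposited values reach down to 1.13, lower than RMA usually gives, so a step not named in the notes may have been applied and could affect dim probe sets. The table held 45101 probe sets, 64 of them array controls. The platform annotation, possibly out of date, gave 34945 of them 1 gene and 932 several genes, and left 9160 unnamed. A gene was represented by its single-gene probe set with the highest mean over 6 arrays. The 43 genes used 13 probe sets of the _x_at and 2 of the _s_at type, which may bind related sequences.

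Deleted minus control was fitted for all 18193 genes by the two-sided moderated test of limma 3.58.1 (lmFit, eBayes) in R 4.3.3, with Benjamini-Hochberg adjustment over all genes and a threshold of 0.05. Each array is labelled as a separate animal, so p-values reflect the spread between animals, and precision is limited by their number. The labels do not say that replicate numbers pair animals. Probe sets paired with several genes were tested in a fit over all probe sets but the controls. Only the limma fit was tested on simulated data, with known changes and noise drawn independently for each value. Effects shared by the genes of an array, list medians, counts without overlap and start sequences were not part of it. Members, lists and tests were chosen with earlier results of these data known. Each named gene is a member, or among the 3 with the smallest p in its list. Epithelial markers and genes read by shared probe sets are named outside this rule, after their values were seen. So are Rplp0, Fau, Rpl22l1, Npm1, Myc, Larp1, Larp4, Aen and Polk. Start sequences come from RefSeq (GRCm38.p6) and were matched by symbol; starts on 1 chromosome were left out. The rule for pyrimidine runs and the motifs were chosen after the sequences were seen.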

Additional observations from a re-analysis of the deposited data

How the results depend on the processing

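With 3 arrays per group, differences near 0.15 on the log2 scale lie within the 95% confidence interval of a single gene (median half-width 0.30 over the 43 genes). The median over the 43 genes stayed below 0 under all 17 alternatives, from −0.08 after median centring, which also moved the median of all genes from 0.02 to 0.08, to −0.22 with array weights; without 1 array it ran from −0.19 to −0.11. The count of the 43 genes that passed was 0 under every alternative but array weights, where Rpl12 (adjusted p = 0.0211) and Rps6 (0.0407) made it 2. Groups did not overlap in 14 genes, all lower, against 11.2% of all genes. Without 1 array, which can only keep or raise the count, it was 14 to 29, against 14.3% to 17.4%. The cause of these changes was not tested.

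Whether replicate numbers pair the arrays could not be settled with 3 arrays per group. Correlations of deviations were 0.08, 0.10 and −0.01 for numbers 1, 2 and 3. Control replicates 1 and 2 correlated best with their own number, and control replicate 3 did not. With the replicate number as a block, 113 genes and 0 of the 43 passed. The median over the 43 was again −0.15, as a block cannot move it in this balanced design.

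Of all genes, 141 passed, against 298 without dim genes, 252 with a trend and robust prior, 1406 with array weights, 36 with the Gapdh covariate, 5 without control replicates 1 and 2, 450 at an adjusted p of 0.1, and 18 to 251 without 1 array (23, 31 and 56 without control replicates 1, 2 and 3, and 251, 23 and 18 without deleted replicates 1, 2 and 3). With array weights 7.73% of all genes passed. By list, 3 of 41 initiation factors, 7 of 47 ribosome biogenesis genes and 1 of 76 mitochondrial ribosomal proteins passed. Among the mTORC1 and MYC genes 3 of 18 passed, and among the p53 response genes 1 of 18. At an adjusted p of 0.1, 1 initiation factor and 1 mTORC1 and MYC gene did, and 1 of the latter without dim genes.

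List medians moved as follows. Elongation and TOP mRNAs: −0.12 with array weights, −0.028 median centred, −0.15 quantile normalised again, −0.11 with each probe set separately, and −0.16 to −0.076 without 1 array. Initiation factors: 0.081 median centred and −0.029 to 0.042 without 1 array. The mTORC1 and MYC list: 0.10 median centred and 0.032 to 0.084 without 1 array, the highest without deleted replicate 3. Mitochondrial ribosomal proteins, from −0.009: −0.082 with array weights, 0.053 median centred, −0.036 quantile normalised again, −0.044 with the Gapdh covariate, and −0.102 to 0.047 without 1 array, the lowest without deleted replicate 3. The p53 list: 0.27 with array weights, 0.24 median centred, 0.12 with each probe set separately, and 0.10 to 0.21 without 1 array.

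Of 252 values of the 16 named members under alternatives, 18 had the opposite sign, all in Rps27l, Rpl39l, Rps27, Rpl39, Rpl3l or Rps19; the difference of Rpl3l, −0.145, was close to the median of the 43. Rps27l stood at −0.15 with the Gapdh covariate, −0.10 without control replicates 1 and 2, and −0.048 to 0.24 without 1 array. Rpl39l stood at −0.011 with array weights, −0.019 quantile normalised again, −0.16 with the Gapdh covariate, −0.13 without control replicates 1 and 2, and −0.091 to 0.098 without 1 array. Median centred, Rps27 stood at 0.005 and Rpl39 at 0.027, and Rpl39 at 0.008 quantile normalised again. Without 1 array, Rps27 ran from −0.15 to 0.007, Rpl3l from −0.25 to 0.016, Rpl39 from −0.15 to 0.053 and Rps19 from −0.30 to 0.038.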
